A study of Mus musculus with 4 samples.

Results

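Cytosolic ribosomal proteins are the protein components of the ribosomes that translate messenger RNA outside the mitochondria. They were taken here as every noncontrol array probe whose gene name is Rpl or Rps with a number and at most 1 further letter (a, x, y or l), together with Rplp0, Rplp1, Rplp2 and Rpsa. This gave 138 probes of 80 genes, out of 41174 probes. Of these, 135 probes of 79 genes were well above background on at least 2 of the 4 arrays and entered the tests. The other 3 were not well above background on any array: the probe of Rpl3l, 1 cDNA probe of Rps2 and 1 cDNA probe of Rps19.

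The cells were iHeps, which stands for induced hepatocyte-like cells, made from C57BL/6 mouse cells that the labels call MDFs and grown in 3D or in 2D. The 4 samples were 3D culture of iHep-2, 3D culture of iHep-1, 2D culture of iHep-2 and 2D culture of iHep-1, with iHep-1 and iHep-2 being separate experiments per the design text. Each sample was measured on 1 one-colour Agilent array, and the number of arrays limits the precision. Both 2D titles also hold a plus sign that no source used here explains, so that whatever it marks cannot be told apart from culture.

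A ribosome joins a small subunit, which reads the message, to a large subunit, which forms the peptide bonds. Vertebrate mRNAs of ribosomal proteins typically start with a cytosine followed by a run of pyrimidines. Through this 5′ terminal oligopyrimidine tract the kinase complex mTORC1 and the La-related protein Larp1 control their translation. In liver, ribosome production follows nutrient supply and growth. The arrays measured RNA abundance and not translation.

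All levels are log2 values relative to the 75th percentile of the same array, so that 0 is the brightness of the probe at that percentile, and all differences are 3D minus 2D on that scale unless stated otherwise. Probes differ in how brightly they hybridise, so the level of 1 probe is no measure of RNA abundance against another probe.

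The 60-base probes that carry the contrasts described here are shown first, 5′ to 3′, with positions in mouse build mm9 as the files give them. The first set holds paralogs, genes copied from another ribosomal protein gene, with the probe of the partner gene for Rps27l and Rpl36al. For probes that may reach into an untranslated region the first 30 of the 60 bases are given.
Rps27l, first 30 bases: aaagccaggctcacagaaggctgttcattt
Rps27, first 30 bases: ctgaaagcccctgattgaagatgagtggga
Rpl36al, whole probe: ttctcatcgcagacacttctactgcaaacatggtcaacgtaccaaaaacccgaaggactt
Rpl36a, whole probe: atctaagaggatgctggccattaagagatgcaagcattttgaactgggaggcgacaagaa
Rpl39l, brighter probe, first 30 bases: ctgtgctttagtgagttcattcagcagttc
Rpl39l, dimmer probe, first 30 bases: tcatctgcataatagacaagtattctatca
The Rps27l probe lies at chr9:66795486-66797176 (+ strand) and so spans an intron, and the Rps27 probe at chr3:90016591-90016650 (- strand). The Rpl36al probe lies at chr12:70284093-70284152 (- strand) and this Rpl36a probe at chrX:131122046-131122105 (+ strand). The Rpl39l probes lie at chr16:10174657-10174716 (+ strand) and chr16:10174765-10174824 (+ strand). No probe of a paralog shared a run of more than 8 bases with a probe of its partner over the 16 probe pairs compared, including those of Rpl22l1 and Rpl7l1. The best ungapped alignment of any pair matched 24 bases, so the paired probes are distinct sequences. Probes were compared only with probes, so whether a probe also binds the mRNA of the partner gene was not tested.

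The second set holds probes of the same gene that gave different values, and the gene with the lowest values.
Rpl11, cDNA probe: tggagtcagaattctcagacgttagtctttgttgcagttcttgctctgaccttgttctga
Rpl11, mRNA probe: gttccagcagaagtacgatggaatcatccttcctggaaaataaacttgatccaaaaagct
Rpl9, cDNA probe: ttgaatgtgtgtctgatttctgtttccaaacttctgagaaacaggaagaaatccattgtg
Rpl9, mRNA probe: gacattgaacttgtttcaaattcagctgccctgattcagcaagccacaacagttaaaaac
Rplp0: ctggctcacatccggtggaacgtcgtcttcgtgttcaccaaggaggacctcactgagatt
Rpl31, dimmer probe, first 30 bases: cattttcagttccaggtttatgtgtgagcc
Rpl31, brighter probe, first 30 bases: gggtgttggaaattaatctgagaatctctg
The Rpl11 mRNA probe spans chr4:135605885-135606207 (- strand), and the cDNA probe lies inside that span at chr4:135605957-135606016 (- strand), at least 59 bases from either end. The same holds for Rpl9, with the mRNA probe spanning chr5:65779884-65780334 (- strand) and the cDNA probe at chr5:65780200-65780259 (- strand). These cDNA probes therefore lie in the gap that the 60 bases of the mRNA probe skip. The Rplp0 probe lies at chr5:116010930-116010989 (+ strand), and the Rpl31 probes at chr1:39428508-39428567 (+ strand) and chr1:39428271-39428330 (+ strand).

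Promoter entries from RefSeq (build GRCm38.p6, 250 bases before to 50 after the start) were found for 60 of the 80 genes. The motif CTTTC, on either strand within 10 bases of the listed start, was in 12 of the 60 (20%) and in 5.53% of all 27025 genes in the table. On the transcribed strand alone it was in 11 of the 60 (18.3%) and in 2.91% of all genes. The motif CCGGAAG, the core bound by ETS-type factors such as GABP, was in 26 of the 60 (43.3%) on either strand of the 300 bases and in 9.93% of all genes. The motif TATAAA was in 6 of the 60 (10%) and in 15.7% of all genes. The 30 bases around the start are shown for members with CTTTC and, for contrast, for Rps27l and Rpl31, with CTTTC in capitals.
Rpl28: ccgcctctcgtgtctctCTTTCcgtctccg
Rpl38: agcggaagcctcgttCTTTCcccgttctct
Rplp2: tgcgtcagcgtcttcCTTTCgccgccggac
Rps10: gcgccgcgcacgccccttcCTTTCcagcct
Rps27: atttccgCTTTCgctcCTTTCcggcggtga
Rpl39l: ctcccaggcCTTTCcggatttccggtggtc
Rps27l: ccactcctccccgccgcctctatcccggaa
Rpl31: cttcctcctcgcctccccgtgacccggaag
The windows lie at chr7:4792950-4792979 (+ strand), chr11:114668565-114668594 (+ strand), chr7:141447636-141447665 (+ strand), chr17:27635230-27635259 (- strand), chr3:90213634-90213663 (- strand), chr16:10170213-10170242 (+ strand), chr9:66946071-66946100 (+ strand) and chr1:39367836-39367865 (+ strand), in the order shown. The table lists a second start for Rps27l. No CTTTC occurs in the printed windows of Rps27l and Rpl31, which says only that these letters are not there.

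Ribosomal protein probes were mostly lower in 3D than in 2D culture in both experiments. Their median difference was -0.38 in iHep-2 and -0.41 in iHep-1, and -0.40 for the mean of both, a level in 3D of 0.757 times that in 2D. Over all 24467 tested probes the medians were 0.02, -0.03 and -0.002 in the same order. The interquartile range of the ribosomal protein probes was -0.52 to -0.26, against -0.31 to 0.35 for all tested probes. The values of single probes ran from -1.23 for Rpl31 to 1.18 for a cDNA probe of Rpl11. Scaled to the spike-in controls of the arrays instead, the median of all tested probes was -1.10 and that of the ribosomal protein probes -1.50. This scaling adds 1 constant per array to every probe and rests on only 6 spike-in probes. Their mean log2 signal was 8.596 in 3D of iHep-2 and 9.849 in 3D of iHep-1. In 2D it was 8.696 and 7.997 in the same order. The spike-in signal thus differed far more between cultures in iHep-1 than in iHep-2, and the cause was not tested. The size in each experiment depended on the scaling. With quantile normalization the median of the ribosomal protein probes was -0.63 (iHep-2) and -0.32 (iHep-1). It was -0.63 and -0.31 with the authors' deposited series table, and -0.91 and -2.08 with spike-in scaling, in the same order. In bulk RNA, fewer cells of a type and less RNA per cell cannot be told apart.

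Of the 135 probes, 115 were lower in 3D in both experiments, where 33.8% of all tested probes were. Another 7 were higher in 3D in both, against 31.8% of all tested probes. The remaining 13 went opposite ways, with the 3D array above the 2D array in iHep-2 and below it in iHep-1. Of all 24467 tested probes, 8408 went opposite ways, and 3726 of these were higher in iHep-1 and lower in iHep-2. Both 3D arrays lay below both 2D arrays for 112 of the 135 probes, against 22% of all tested probes. Both 3D arrays lay above both 2D arrays for 6, against 19.1% of all tested probes. By gene, 62 of the 79 had every tested probe lower in both experiments and 11 had some. Only Rpl11, Rpl37a, Rpl9, Rplp1, Rps12 and Rps27l had none, and these were named here after their values were seen.

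No single probe passed the test. With limma, 0 of the 135 probes and 0 of all 24467 (0%) had an adjusted p under 0.05, and the lowest adjusted p among the ribosomal protein probes was 0.695. At an unadjusted p under 0.05, 17 were lower and 1 was higher, against 3.16% and 3.86% of all tested probes. With the experiment as a block in limma, 0 were called, against 0% of all tested probes, and the lowest adjusted p was 0.278. In that fit 14 lower and 1 higher had an unadjusted p under 0.05, against 5.33% and 8.09% of all tested probes. A difference of at least 2-fold in both experiments was found for 2 probes lower and 0 higher, against 1.95% and 3.77% of all tested probes.

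**Figure D1:**
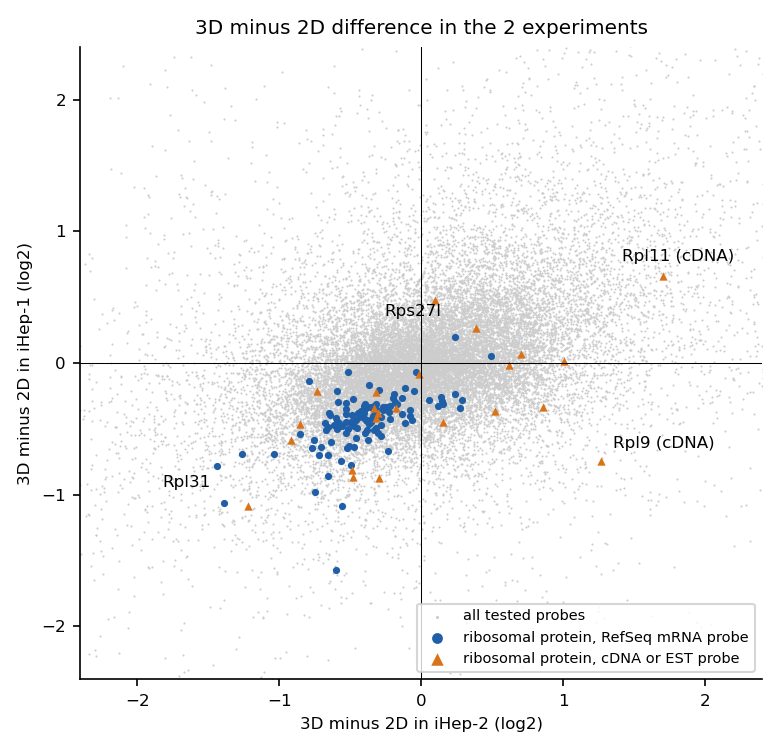
Each point is 1 probe, with its 3D minus 2D difference (log2) in iHep-2 on the x axis and in iHep-1 on the y axis; grey points are all tested probes, of which 1349 lie outside the axes, and all 135 ribosomal protein probes lie inside. The blue points gather around -0.38 and -0.41, while several orange cDNA or EST probes lie to the right of 0.

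The size of the difference was alike in both subunits. The 78 tested large subunit probes had a median of -0.40, with 67 lower and 3 higher in 3D in both experiments. The 57 tested small subunit probes had a median of -0.41, with 48 lower and 4 higher in both. The SD of the ribosomal protein differences was 0.44 in iHep-2 and 0.27 in iHep-1, against 1.13 and 0.79 over all tested probes. Mitochondrial ribosomal proteins, with 0.32 and 0.27, and ribosome biogenesis genes, with 0.33 and 0.27, had SDs as small or smaller.

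The stalk of the large subunit, which recruits elongation factors, is built from Rplp0, Rplp1 and Rplp2. Rplp0 had levels of 4.50 and 4.79 in 3D of iHep-2 and iHep-1, and of 5.41 and 5.38 in 2D of the same experiments. Both 3D arrays were lower than both 2D arrays, with a mean difference of -0.75 (limma SE 0.24, adjusted p = 0.695). This probe was spotted 10 times on each array, and the SD of its spots was 0.08 and 0.03 in 3D and 0.04 and 0.04 in 2D, with iHep-2 first. The SD of spots covers the spread within an array only.

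Rplp1 gave other values. Its levels were 8.95 and 8.62 in 3D of iHep-2 and iHep-1, and 8.67 and 8.90 in 2D, so that the groups overlap. The differences were 0.28 in iHep-2 and -0.28 in iHep-1. Rplp2 had levels of 8.26 and 8.14 in 3D, and of 8.37 and 8.60 in 2D, with both 3D arrays lower than both 2D arrays. Its differences were -0.12 in iHep-2 and -0.46 in iHep-1.

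Rpsa is a small subunit protein that is also known as a laminin receptor. Its brighter probe had levels of 5.11 and 5.21 in 3D of iHep-2 and iHep-1, and of 5.70 and 5.65 in 2D. Its dimmer probe had -2.06 and -1.55 in 3D, and -1.03 and -0.86 in 2D. For both probes the 3D arrays were lower than the 2D arrays, with mean differences of -0.52 and -0.86 (limma adjusted p = 0.695 for each).

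**Figure D2:**
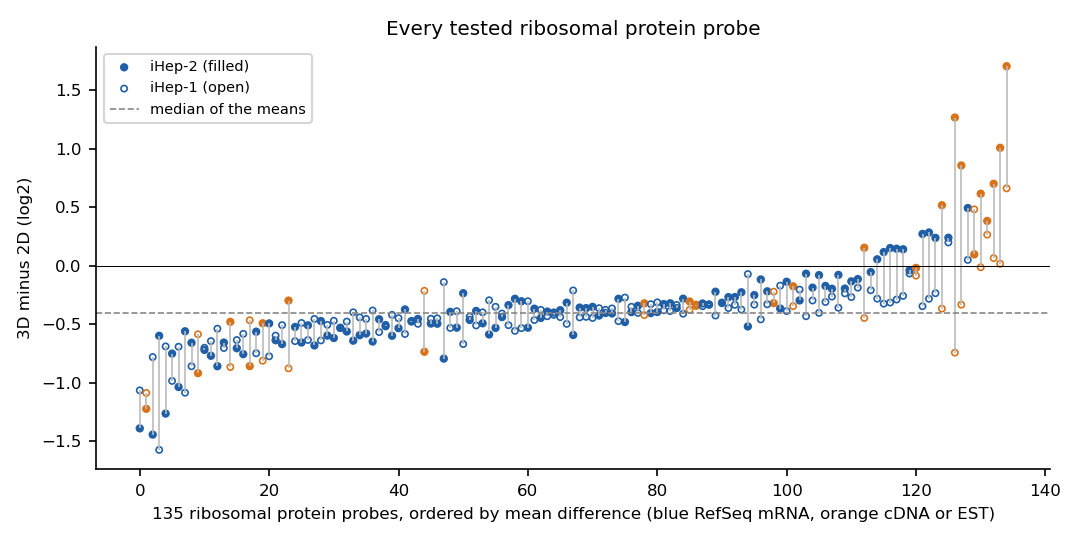
The 135 tested ribosomal protein probes are ordered along the x axis by mean difference, and the y axis gives 3D minus 2D (log2) in iHep-2 (filled) and iHep-1 (open); blue marks RefSeq mRNA probes, orange cDNA or EST probes, and the dashed line the median of the means. Most of the series lies close to -0.40, and the high end is made mainly of orange probes whose iHep-2 point is the higher.

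The lowest difference belonged to a probe of Rpl31, a large subunit protein at the rim of the exit tunnel. This dimmer probe of Rpl31 had levels of 0.50 and 0.76 in 3D of iHep-2 and iHep-1, and of 1.89 and 1.83 in 2D. The brighter probe of Rpl31 had 1.31 and 1.53 in 3D, and 2.75 and 2.31 in 2D. On both probes, whose sequences lie apart, every 3D array was below every 2D array. The mean differences were -1.23 (SE 0.23) and -1.11 (SE 0.28), with a limma adjusted p of 0.695 for both. At -1.23 the level in 3D was 0.428 times that in 2D.

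A cDNA probe of the small subunit gene Rps20 had levels of -0.89 and -0.91 in 3D of iHep-2 and iHep-1, and of 0.34 and 0.18 in 2D. Its arrays of 1 culture differed by at most 0.16, and the mean difference was -1.15. The mRNA probe of Rps20 had a mean difference of only -0.55. Rpl14, a large subunit protein, had 1.19 and 1.66 in 3D, and 2.46 and 2.35 in 2D, a mean difference of -0.98. The Rps20 cDNA probe and the Rpl14 probe thus had separate groups, as did the other probes among the 8 lowest. These were a dim probe of Rpl37 (-1.08), the mRNA probe of Rpl21 (-0.87), the dimmer Rpsa probe (-0.86) and the dimmer probe of Rpl22 (-0.82). The brighter probes of Rpl37 and Rpl22 had mean differences of -0.35 and -0.44.

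The 8 highest mean differences came from 7 cDNA or EST probes and 1 dim mRNA probe. The cDNA probe of Rpl11, shown above, had levels of 0.42 and -0.38 in 3D of iHep-2 and iHep-1, and of -1.28 and -1.04 in 2D. Its 3D arrays lay above its 2D arrays, by 1.70 (iHep-2) and 0.66 (iHep-1), with a mean of 1.18 (limma SE of the mean 0.37, adjusted p = 0.695). The mRNA probe of Rpl11, which encodes a large subunit protein that also binds the p53 regulator Mdm2, gave another picture. Its levels were 7.89 and 7.61 in 3D, and 7.75 and 7.87 in 2D, so the groups overlap.

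Rpl9 showed a similar split between the probes printed above. The cDNA probe had levels of -0.14 and -1.67 in 3D of iHep-2 and iHep-1, and of -1.41 and -0.93 in 2D. Its difference was 1.27 in iHep-2 and -0.74 in iHep-1. The mRNA probe differed by 0.27 in iHep-2 and by -0.35 in iHep-1. A cDNA probe of Rpl35a also lay in the gap of that gene's mRNA probes, and differed by 0.10 in iHep-2 and by 0.48 in iHep-1, but it was well above background on only 2 of the 4 arrays, so these sizes are not firm. The mRNA probes of Rpl35a had mean differences of -0.40 and -0.57.

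Besides Rpl11, 2 further genes had probes at least 1 log2 unit apart, out of 43 genes with several tested probes. The same share was not computed over other genes. For Rpl27a the cDNA probe had levels of -0.92 and -1.65 in 3D of iHep-2 and iHep-1, and of -1.93 and -1.66 in 2D, so its 3D arrays were the higher, in iHep-1 by only 0.02. The mRNA probe of Rpl27a had 4.34 and 4.70 in 3D, and 4.84 and 5.33 in 2D, so its 3D arrays were the lower. For Rpl21 the cDNA probe had 3.20 and 2.24 in 3D, and 2.34 and 2.57 in 2D, which overlap. The Rpl21 mRNA probe had -1.18 and -1.02 in 3D, and -0.43 and -0.03 in 2D, with no overlap.

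The other probes among the 8 highest were a cDNA probe each of Rps12 (0.38) and Rps13 (0.32), an EST probe of Rps4x (0.30) and a dim mRNA probe of Rps15a (0.27). Over all 23 tested cDNA or EST probes the median difference was -0.26, with 13 lower and 5 higher in both experiments. That median was -0.07 with normexp, -0.05 without the 3D array of iHep-1 and -0.37 without that of iHep-2. Over the 112 tested probes with a RefSeq mRNA accession it was -0.41, with 102 lower and 2 higher. The 40 tested probes that cross a genomic gap of at least 30 bases, taken as an intron, had 37 lower and 1, that of Rps27l, higher in both experiments. The part of probe design or of unspliced RNA in these values was not tested. With spike-in scaling all of these high probes apart from the Rpl11 cDNA probe had means below 0.

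Some paralogs had values apart from those of their partners. Rps27l, known from human cells as a p53 target, had levels of 6.57 and 6.32 in 3D of iHep-2 and iHep-1, and of 6.33 and 6.12 in 2D. In each experiment the 3D array was the higher, by 0.24 and 0.20 (mean 0.096 to 0.34 when 1 array was left out), but the iHep-1 3D array lay just below the iHep-2 2D array. Its partner Rps27, a small subunit zinc finger protein, had 8.02 and 7.97 in 3D, and 8.30 and 8.45 in 2D, where both 3D arrays were the lower. The difference of Rps27l exceeded that of Rps27 by 0.52 (iHep-2) and by 0.67 (iHep-1), a gap that no scaling by a constant per array alters. With spike-in scaling the mean difference of Rps27l itself was -0.88. An exact permutation test of the gap gave p = 0.333 (two-sided), the smallest that 2 arrays per culture allow in this form. Here and below that test ignores the pairing of arrays by experiment.

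Rpl36al, a paralog of Rpl36a whose symbol lies outside the member rule, gave a similar pattern. Its levels were 4.77 and 4.92 in 3D of iHep-2 and iHep-1, and 4.65 and 4.79 in 2D, so each 3D array was the higher by 0.12 and 0.13 (mean 0.054 to 0.20 when 1 array was left out), with groups that overlap. The 3 probes of Rpl36a had mean differences of -0.13, -0.59 and -0.65, the first being the probe printed above. The gap between Rpl36al and these probes was 0.26, 0.71 and 0.78 in the same order (exact permutation p = 0.333 for each). With spike-in scaling Rpl36al had a mean difference of -0.97.

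Rpl39l, a paralog expressed in male germ cells of mice, did not part from Rpl39 in this way. Its dimmer probe had levels of 0.71 and 0.95 in 3D of iHep-2 and iHep-1, and of 1.57 and 1.49 in 2D. Its brighter probe had 4.86 and 5.06 in 3D, and 5.38 and 5.13 in 2D. All 3D arrays were lower than the 2D arrays on both probes. Rpl39, which lines the exit tunnel, had 6.86 and 6.79 in 3D, and 7.26 and 7.10 in 2D, also without overlap. The gap between Rpl39l and Rpl39 was -0.34 for the dimmer probe and 0.06 for the brighter one (exact permutation p = 0.333 and p = 1.0).

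Rpl3l, the paralog of Rpl3 known from striated muscle, was not well above background on any of the 4 arrays, so no fold is given. Rpl3 had levels of 6.27 and 6.23 in 3D of iHep-2 and iHep-1, and of 6.86 and 6.44 in 2D, with the 3D arrays the lower. The mRNA probe of Rpl22l1, a paralog of Rpl22 that is also outside the member rule, differed by -0.72 in both experiments. Its levels were 6.10 and 5.77 in 3D, and 6.82 and 6.49 in 2D. The probes of Rpl22 had mean differences of -0.44 and -0.82, so that Rpl22l1 lay between them. Rpl7l1, also outside the member rule, depended on the probe. The Rpl7l1 probe with the higher difference lay above every probe of Rpl7 in both experiments. Its mean gaps were 0.51, 0.37 and 0.26 (exact permutation p = 0.333 for each). The other Rpl7l1 probe had mean gaps of 0.21, 0.07 and -0.04 from the same Rpl7 probes.

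**Figure D3:**
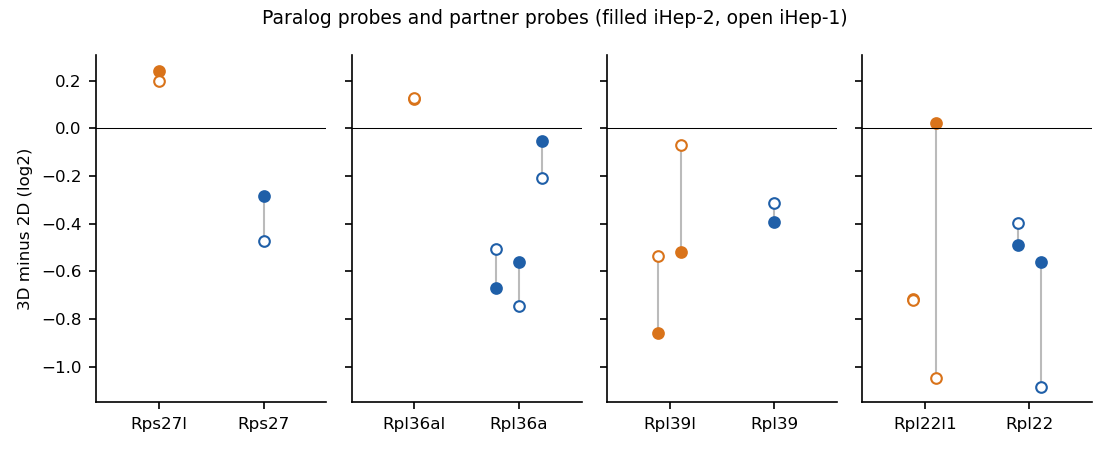
Each panel gives 3D minus 2D differences (log2, y axis) for the probes of a paralog (orange, left) and of its partner (blue, right), filled for iHep-2 and open for iHep-1, with 1 column of points per probe and a grey line joining its experiments. On the 75th percentile scale Rps27l and Rpl36al lie above 0 (below 0 with spike-in scaling) and above their partners. The brighter Rpl39l probe and the Rpl22l1 probes overlap with their partners, while the dimmer Rpl39l probe lies below Rpl39. The cDNA probe of Rpl22l1 was well above background on only 2 of the 4 arrays, both of 2D culture.

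Among the ribosomal protein probes, brighter ones tended to show smaller differences. Whether probes of other genes do the same was not tested. In 28 genes with several tested RefSeq mRNA probes, the brightest probe was less lowered in 3D than the dimmest in 25, and the median gap over all 28 was 0.12. Across the 112 RefSeq mRNA probes, level and mean difference had a Spearman correlation of 0.55, given as a description since these probes share 4 arrays and several share a gene. The share of G and C in the probe had a correlation of 0.01 with the difference. Of the 138 probes, 81 were read from the low-gain scan on all 4 arrays, as very bright spots are, and 41 on none. The tested probes of these classes had medians of -0.37 and -0.52. The 414 other probes read from the low-gain scan on all arrays had a median of 0.14, with 0.31 in iHep-2 and -0.08 in iHep-1, and of 0.005 without the 3D array of iHep-2 and 0.02 without its 2D array. No ribosomal protein spot was saturated.

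Several ribosomal protein genes are widely used as reference genes. Rps18 depended on the probe: its brightest had levels of 9.36 and 8.90 in 3D of iHep-2 and iHep-1, and of 9.12 and 9.13 in 2D, which overlap. Another mRNA probe of Rps18 had 7.86 and 7.58 in 3D, and 8.20 and 8.09 in 2D, where the 3D arrays were the lower. A very dim cDNA probe of Rps18 had -4.80 and -5.01 in 3D, and -4.32 and -4.15 in 2D, a mean difference of -0.67. Rpl13a had 6.77 and 6.84 in 3D, and 7.37 and 7.26 in 2D, a mean difference of -0.51. Rpl4 (-0.55), Rpl32 (-0.42), Rps29 (-0.31) and Rpl27 (-0.30) were also lower in both experiments, as were both probes of Rpl19 (-0.25 and -0.38). Rps6, the substrate of S6 kinase, had 5.75 and 5.93 in 3D, and 6.51 and 6.51 in 2D. Its mean difference was -0.67 (limma SE 0.22, adjusted p = 0.695), and its cDNA probe gave -0.59.

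On the percentile scale used here, the experiments differed little in ribosomal protein levels. The median difference of iHep-2 minus iHep-1 was 0.05 in 3D and -0.003 in 2D. The median SD between the 2 arrays of a culture was 0.10, against 0.28 over all tested probes. Of the lists described below, translation factors and RNA polymerase I also had 0.10, mitochondrial ribosomal proteins 0.13 and ribosome biogenesis genes 0.19. The other probes read from the low-gain scan on all arrays had 0.19. The lowest, median and highest level over the 135 probes were -5.47, 6.27 and 9.36 in 3D of iHep-2, and -5.35, 6.23 and 8.90 in 3D of iHep-1. In 2D they were -5.57, 6.70 and 9.12 for iHep-2, and -5.83, 6.59 and 9.13 for iHep-1. These ranges hold probe brightness as well as RNA abundance. With spike-in scaling the median of 3D minus 2D was -0.91 in iHep-2 and -2.08 in iHep-1. On that scale the experiments therefore cannot be close in both 3D and 2D.

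With limma, 0 of the 135 probes differed between the experiments at an adjusted p under 0.05, where 177 of all tested probes (0.723%) did. The lowest adjusted p among the ribosomal protein probes was 0.709. At an unadjusted p under 0.05, 0 were higher and 0 were lower, against 5.39% and 7.01% of all tested probes. In both cultures, 44 of the 135 were higher in iHep-2 and 29 were lower, against 29.1% and 34.7% of all tested probes.

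The highest mean differences between experiments came from cDNA probes that were higher in iHep-2 in 3D. They were 0.52 for Rpl9, 0.44 for a cDNA probe of Rps28, 0.37 for the cDNA probe of Rpl21 and 0.35 for Rps12. In 3D alone the Rpl9 cDNA probe was higher in iHep-2 by 1.53, and in 2D it was lower by 0.48 (value -0.48). Rpl10a and 1 probe of Rpl36 differed in both cultures, with means of 0.35 each. Their values were 0.38 and 0.41 in 3D, and 0.32 and 0.28 in 2D. The lowest were the mRNA probe of Rpl27a (-0.42), the dimmer Rpsa probe (-0.34), the mRNA probe of Rpl21 (-0.28), Rps14 (-0.28) and both probes of Rpl17 (-0.26 and -0.24).

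**Figure D4:**
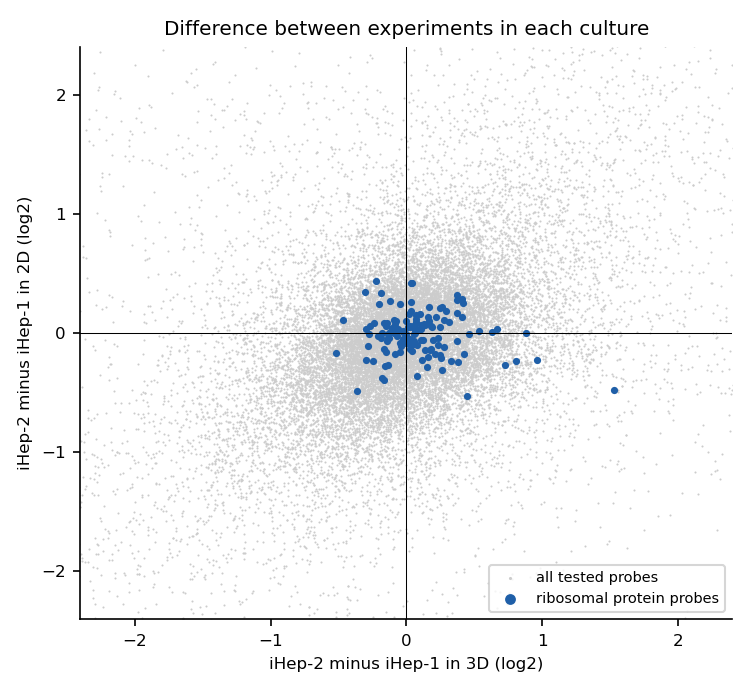
Each point is 1 probe, with the difference of iHep-2 minus iHep-1 (log2) in 3D on the x axis and in 2D on the y axis, for all tested probes (grey) and ribosomal protein probes (blue). On the percentile scale the blue points lie close to 0 on both axes, with medians of 0.05 and -0.003. A few probes lie to the right, of which the cDNA probe of Rpl9 at 1.53 is the farthest.

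Other genes of the translation machinery were described by lists chosen with earlier results known. None of their probes was called by limma, so counts are of direction in both experiments, where 33.8% of all tested probes were lower and 31.8% higher. Translation factors whose mRNAs carry the same 5′ tract had a median of -0.53, with 24 of 27 tested probes lower and 0 higher. The nucleolar chaperone Npm1, counted with them, had levels of 5.52 and 5.63 in 3D of iHep-2 and iHep-1, and of 6.64 and 6.52 in 2D. Its 3D arrays were the lower by 1.01 on average (value -1.01), and the elongation factor Eef2 had -0.71 and the RNA-binding Hnrnpa1 -0.87.

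Ribosome biogenesis genes had a median of -0.36, with 33 of 40 probes lower and 1 higher. Nucleolin (Ncl), which processes preribosomal RNA, had -1.36 and -1.07 in 3D of iHep-2 and iHep-1, and -0.11 and -0.12 in 2D. The nucleolar GTPase Gnl3 and the assembly factor Bysl had mean differences of -0.67 and -0.52. For RNA polymerase I, which makes ribosomal RNA, 8 of 12 probes were lower and 0 higher, with a median of -0.27. Its initiation factor Rrn3 had -0.57, the subunit listed as Rpo1-3 had -0.53 and Taf1b -0.67.

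Mitochondrial ribosomal proteins, which serve translation inside mitochondria, had a median of 0.07 (-1.03 with spike-in scaling, against -1.10 for all probes). Without the 2D array of iHep-2 it was -0.05, and without the 3D array of iHep-1 it was 0.008. Of their 119 tested probes, 34 were lower and 51 higher in both experiments. Mrps6 had levels of 2.59 and 2.92 in 3D of iHep-2 and iHep-1, and of 3.63 and 3.88 in 2D, and cDNA probes of Mrpl15 and Mrps15 had mean differences of -0.80 and -0.54. Among ribosomal proteins named otherwise, 4 of 8 probes were lower and 1, that of Rpl36al, was higher, with a median of -0.32. Fau, which encodes a ubiquitin-like fusion, had -0.33, the probes of Gnb2l1 (Rack1) -0.16 and -0.65, and those of Rpl7l1 -0.30 and -0.005.

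Regulators of growth and of mTORC1 signalling had a median of -0.16, with 14 of 23 probes lower and 3 higher. Myc, a transcription factor that drives ribosome production, had -0.98 and -0.93 in 3D of iHep-2 and iHep-1, and 0.36 and -0.01 in 2D. Eif4ebp1, an inhibitor of cap-dependent initiation, had levels of -2.20 and -2.26 in 3D, and -1.02 and -1.15 in 2D. In both genes every 3D array was below every 2D array, with mean differences of -1.13 and -1.14 (limma adjusted p = 0.695 for each). The S6 kinase Rps6kb1 had a mean difference of -0.48.

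**Figure D5:**
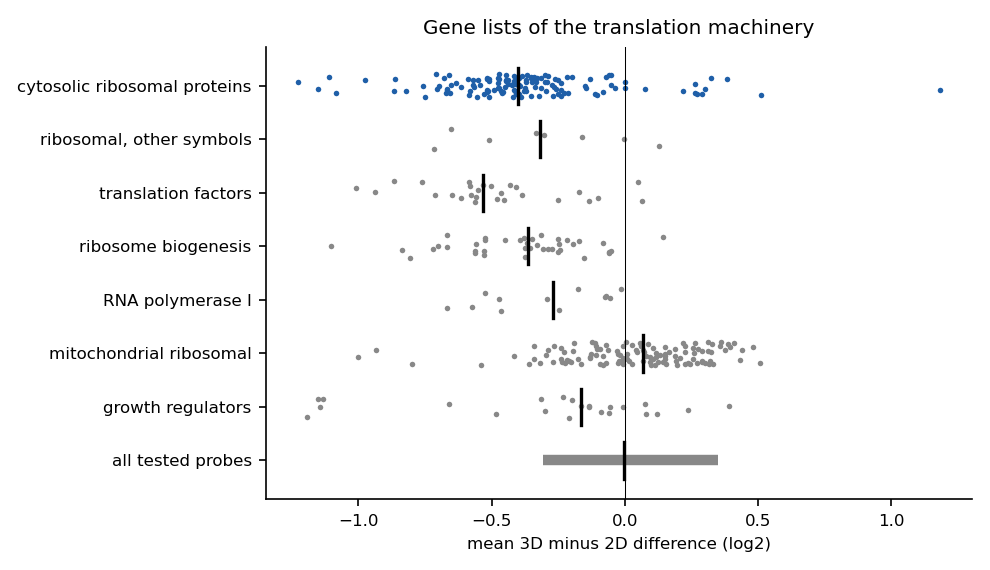
Points are tested probes of each list, with their mean 3D minus 2D difference (log2) on the x axis; black bars are medians, and the grey band of all tested probes runs from -0.31 to 0.35. Cytosolic ribosomal proteins, translation factors and ribosome biogenesis lie left of 0 with medians of -0.40, -0.53 and -0.36, and mitochondrial ribosomal proteins have a median of 0.07 (-1.03 with spike-in scaling).

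Values of proliferation genes and of cell type markers are given beside these, with none of their probes called. Of 14 tested probes of proliferation genes, 13 were lower in 3D in both experiments, and the levels of the list, summed on the linear scale relative to the 75th percentile, were 11.7 and 14.1 in 3D of iHep-2 and iHep-1, and 48.1 and 19.4 in 2D. The mean differences of Mki67, Aurkb and Top2a were -3.43, -4.10 and -3.52. The list median was -4.96 in iHep-2 and -1.42 in iHep-1, and -3.48 for the mean of both (-1.84 with normexp). Of 14 hepatocyte probes, 8 were higher and 0 lower in both (list median -0.35 with spike-in scaling), with sums of 2785 and 1681 in 3D, and 1395 and 1900 in 2D. Biliary probes summed to 31.5 and 15.1 in 3D, and to 36.3 and 6.25 in 2D. The fibroblast markers Postn and Thy1, the macrophage marker Ptprc and the endothelial markers Kdr and Pecam1 were not well above background on any array. The tested fibroblast probes summed to 7.80 and 7.65 in 3D, and to 4.995 and 5.22 in 2D. Macrophage sums were at most 1.24 in 3D and 1.54 in 2D, and endothelial sums at most 0.03 and 0.11. The part of these genes in the ribosomal protein differences was not tested.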

How the data were processed

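RNA of 4 samples (RNeasy Micro kit, Quick Amp Cy3 labelling, per the labels' protocols) was hybridised to 4 one-colour Agilent arrays of design 014868, which share 1 slide and 1 scan time per the file headers. The deposited scanner files hold linear intensity values from Agilent Feature Extraction, version 10.7.1.1 per the file headers and 9.5.1.1 per the submitters' processing notes, with probe positions in mm9. The authors' deposited series table, of linear intensity values whose normalization is not stated, ranked probes as the scanner files did (Spearman correlation 0.99999 on each array) and served as an alternative; its medians were 26.3 for both iHep-1 arrays and 22.6 for both iHep-2 arrays.

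From the deposited intensity values, log2 of the processed signal minus the array's 75th percentile was computed. Spots that the software marked as outliers were left out (72 to 85 per array) and spots of 1 probe were averaged. The 75th percentile was 399 to 616 intensity units, and 23061 to 24411 probes were well above background. The 24467 probes that at least 2 of the arrays flagged as well above background were fitted with limma 3.58.1 in R 4.3.3 (lmFit, eBayes, two-sided, Benjamini-Hochberg over all 24467, threshold 0.05). The fit had 2 residual degrees of freedom. It was also run on simulated data with independent noise and added differences well above the ribosomal protein median. That run does not cover small differences or arrays paired by experiment.

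Arrays of 1 experiment are paired per the design text, and their deviations from the group means correlated (r = 0.66); the block is an alternative. Of the 138 probes, 113 were named through an accession in the RefSeq table, and the others kept the name in the files. 2 probes, of Rpl10 and Rpl12, are mapped by the array design to another chromosome than that of the gene, and 1 of Rps4x has no position.

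The members and gene lists were chosen with earlier results of these data known. Named genes are the stalk proteins and Rpsa, paralogs and partners, the 8 highest and 8 lowest differences between cultures, the 6 highest and 6 lowest between experiments, genes with probes at least 1 log2 unit apart, common reference genes, and from each list of the translation machinery or proliferation the 3 genes with the smallest p. 1 gene of these lists and 1 probe sequence are not reported here.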

Additional observations from a re-analysis of the deposited data

Results flagged for a closer look

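For 7 named ribosomal protein probes the difference between 3D and 2D had opposite signs in the experiments, in each case higher in 3D in iHep-2 and lower in iHep-1. With 1 array per culture in each experiment, the difference between experiments was not tested. The difference in iHep-2 minus that in iHep-1 was 2.01 for the cDNA probe of Rpl9, 1.19 for the cDNA probe of Rpl21, 0.88 for a cDNA probe of Rps28 and 0.63 for the EST probe of Rps4x. It was 0.57 for Rplp1, 0.47 for the brightest probe of Rps18 and 0.40 for the mRNA probe of Rpl11.

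Among ribosomal proteins named otherwise, the same value was 1.07 for the cDNA probe of Rpl22l1 (not well above background on either 3D array, so a size near the detection limit), 0.36 for 1 probe of Gnb2l1 and 0.18 for 1 probe of Rpl7l1. Of all 135 ribosomal protein probes, 13 had this pattern and 0 the opposite one. Of all 24467 tested probes, 8408 had opposite signs in the experiments, 3726 of them with the opposite pattern, so such probes were not particular to ribosomal proteins.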

How the results depend on the processing

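The median of the ribosomal protein probes was below that of all tested probes under every alternative run, with gaps (ribosomal minus all) of -0.49 to -0.35. It was -0.46 with quantile normalization, -0.47 with the authors' series table and -1.50 with spike-in scaling, where the median of all probes was -1.10. Leaving out each array in turn gave -0.42 to -0.37. With 1 probe per gene, which leaves 79 probes, 69 were lower and 1 higher in both experiments. The number higher in both was 4 with quantile normalization, 4 with the series table and 0 with spike-in scaling. The median of iHep-2 minus iHep-1 was -0.018 with quantile normalization, 0.13 with spike-in scaling and -0.12 with the series table, and -0.18 to 0.22 when leaving out each array, so its sign is not settled. No ribosomal protein probe was called under any alternative for either comparison. Over the whole array, 415 probes were called with spike-in scaling and 24 with the replicate block, an intensity trend and a robust prior, against 0 as reported, and the cause was not tested. With the replicate block alone 0 were called, the lowest adjusted p of limma among ribosomal protein probes was 0.278, and the block changed no call.

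With spike-in scaling the mean difference between 3D and 2D changed sign for Rplp1 (-1.10), Rps18 (brightest probe, -1.10), Rps27l (-0.88), Rpl36al (-0.97), Rps15a (-0.83), and for cDNA or EST probes of Rps28 (-1.02), Rpl9 (-0.84), Rpl21 (-0.84), Rpl35a (-0.81), Rps4x (-0.80), Rps13 (-0.77), Rps12 (-0.72) and Rpl27a (-0.59). Rplp1 and that Rps18 probe, both near 0, were also below 0 with normexp (-0.012 and -0.017), with the percentile over detected probes (-0.013 and -0.012), with quantile normalization (-0.25 and -0.34) and with the series table (-0.26 and -0.28). With normexp the cDNA probes of Rpl22l1 (0.077) and Mrps15 (0.10) were above 0. Leaving out each array in turn gave -0.16 to 0.17 for Rplp1, -0.23 to 0.23 for the Rps18 probe, -0.22 to 0.74 for Rpl21, -0.015 to 0.62 for Rps4x, -0.37 to 0.52 for Rps28 and -0.50 to 1.03 for Rpl9, each below 0 without the 3D array of iHep-2. Such ranges were -0.20 to 0.082 for the mRNA probe of Rpl11 and -0.071 to 0.061 for 1 probe of Rpl7l1, both above 0 without either iHep-1 array. Rplp1 and the Rps18 probe were also below 0 without the 2D array of iHep-2. The changes with spike-in scaling follow from its construction, which moves every mean difference by the same amount. The cause of the other changes was not tested. With 2 arrays per culture and 135 tested probes of unequal brightness, small differences of single probes could not be resolved.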
